A study of Mus musculus with 6 samples.

Results

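The immunoglobulin light chain genes of the mouse comprise the kappa and lambda variable (V) segments and their constant (C) genes. They were taken as every row whose gene identifier carried, in the GENCODE mouse M21 annotation, a symbol of Igkv or Iglv followed by digits, or the name Igkc, Iglc1, Iglc2 or Iglc3. This gave 167 of the 55487 genes in each table: 160 Igkv segments, 3 Iglv segments, Igkc and 3 Iglc genes. Of the Igkv segments, 100 were annotated as functional genes and 60 as pseudogenes. RNA was measured by polyA RNA-seq in total hematopoietic cells, sorted for the leukocyte surface protein CD45, from the spleen and from the mesenteric lymph node (mLN), which drains the gut. All samples came from WT mice of strain C57BL6/J and were labelled as freshly prepared, with no other treatment, allele or agent. There were 3 libraries per tissue. Whether the replicates are separate animals is not stated in the labels. A p-value here therefore reflects variation among these libraries alone, and that variation could be technical.

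Every B cell pairs an immunoglobulin heavy chain with a light chain of kappa or lambda type, and most mouse B cells carry kappa. A light chain gene is assembled in the developing B cell by joining a V segment to a short joining (J) segment, and the RNA is then spliced to a constant gene, so that each B cell normally expresses a single rearranged V segment. Naive B cells carry the light chain on the surface as part of the B-cell receptor, and plasma cells, which secrete antibody, make far more of the same RNA. The kappa locus lies on chromosome 6 with its single constant gene Igkc at chr6:70726435-70726966 (GRCm38, plus strand). Its V segments lie on both strands, so that some join by deletion and others by inversion of the intervening DNA. The lambda locus on chromosome 16 (minus strand) holds few genes. V-lambda 1 usually joins C-lambda 1 or 3, and V-lambda 2 and V-lambda X (Iglv3) usually join C-lambda 2.

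Reads were assigned to germline segments, so how far 2 segments can be told apart depends on their sequence. The sequences below are from GENCODE M21 transcripts on GRCm38 and are written 5′ to 3′ on the coding strand. The V segment ends are the last coding bases, in the exon that holds the V region. The capitals mark the codon of the conserved cysteine just before the third complementarity-determining region. That region is the part of the light chain that crosses the V to J joint. Igkv3-2 (chr6:70699030-70699067, plus strand) and Igkv3-4 (chr6:70672340-70672377, plus strand) are shown because their RNA was much lower in mLN. Igkv3-5 (chr6:70663858-70663895, plus strand) has the same 38 bases as Igkv3-4. Igkv10-94 (chr6:68704508-68704545, minus strand) was the segment of at least 5 CPM with the largest rise in share, and Igkv10-95 (chr6:68680811-68680848, plus strand) has the same end. Igkv17-127 (chr6:67861622-67861659, plus strand) and Igkv17-121 (chr6:68037281-68037318, plus strand) are another pair of near copies. Igkv1-110 (chr6:68271230-68271267, plus strand) was the most used segment in spleen.
Igkv3-2: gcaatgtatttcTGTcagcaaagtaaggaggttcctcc
Igkv3-4: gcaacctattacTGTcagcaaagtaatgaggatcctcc
Igkv3-5: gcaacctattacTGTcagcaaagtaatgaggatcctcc
Igkv10-94: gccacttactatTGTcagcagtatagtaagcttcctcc
Igkv10-95: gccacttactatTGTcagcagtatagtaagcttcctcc
Igkv17-127: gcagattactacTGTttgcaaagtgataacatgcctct
Igkv17-121: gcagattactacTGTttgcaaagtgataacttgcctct
Igkv1-110: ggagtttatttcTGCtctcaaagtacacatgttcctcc

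The V region of Igkv3-2 and Igkv10-94, which had the largest fall and the largest rise in share among segments of at least 5 CPM, is given at greater length, as the last 270 coding bases with the same codon in capitals. Igkv3-2 spans chr6:70698798-70699067 (plus strand) and Igkv10-94 spans chr6:68704508-68704777 (minus strand). Over their coding sequences the pair was 62.9% identical.
Igkv3-2: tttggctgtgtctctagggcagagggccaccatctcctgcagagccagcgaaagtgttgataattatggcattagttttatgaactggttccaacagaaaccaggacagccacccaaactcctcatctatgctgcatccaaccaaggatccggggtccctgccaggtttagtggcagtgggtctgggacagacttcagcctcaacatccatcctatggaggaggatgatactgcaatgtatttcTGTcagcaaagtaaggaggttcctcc
Igkv10-94: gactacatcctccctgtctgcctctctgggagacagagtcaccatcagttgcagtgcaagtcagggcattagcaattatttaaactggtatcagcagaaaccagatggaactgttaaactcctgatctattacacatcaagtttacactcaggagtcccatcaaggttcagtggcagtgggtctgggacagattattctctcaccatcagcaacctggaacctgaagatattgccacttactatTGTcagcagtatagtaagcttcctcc

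Stretches of 90 bases near the start of the lambda constant exons are shown because the kappa to lambda ratio depended on which of these genes was counted. The capitals mark the 22 positions at which the 3 genes are not all the same. Iglc1 is at chr16:19061979-19062068, Iglc2 at chr16:19198760-19198849 and Iglc3 at chr16:19065589-19065678, all on the minus strand. Over the coding sequence Iglc2 and Iglc3 were 96.2% identical, whereas Iglc1 was 73.4% identical to Iglc2 and 74.5% to Iglc3.
Iglc1: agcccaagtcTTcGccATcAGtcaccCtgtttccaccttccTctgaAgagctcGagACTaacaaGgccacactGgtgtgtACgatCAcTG
Iglc2: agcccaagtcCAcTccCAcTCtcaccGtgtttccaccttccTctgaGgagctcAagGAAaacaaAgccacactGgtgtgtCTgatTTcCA
Iglc3: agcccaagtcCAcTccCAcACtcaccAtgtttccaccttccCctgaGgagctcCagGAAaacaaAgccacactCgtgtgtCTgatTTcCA

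Libraries held 12584244 to 18119551 expected counts, of which the light chain genes took 0.433% ± 0.00549 in spleen but 0.155% ± 0.00387 in mLN (± SD over 3 libraries, here and throughout). B-cell genes were lower in mLN: all 15 of a list of pan-B markers were called lower, with a summed level of 8736 to 8857 CPM (counts scaled to a common library size, with TMM factors) in spleen and 5227 to 5334 CPM in mLN. Of 11 plasma cell markers, 10 were called lower (summed level 1467 to 1475 against 614 to 638 CPM), as were 7 of 8 marginal-zone B markers, with the other called higher (863 to 871 against 505 to 527 CPM), and 5 of 7 germinal-centre markers (133 to 141 against 94.4 to 102 CPM). All 8 pan-T markers were called higher. No marker of these lists was at 0 in either tissue. Of 6 B precursor markers, 3 had enough counts to be tested (1 lower, 1 higher), and Vpreb2 had no count in any library. The part of these differences in the light chain results was not tested, and in such bulk samples fewer B cells and less light chain RNA per cell cannot be told apart.

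Light chain RNA of both types was lower in mLN than in spleen, with kappa in sum lower by more than lambda. Over all 14427 genes tested by edgeR, 23.8% were called lower in mLN, and in 27.5% every mLN library lay below every spleen library. Igkc stood at 2476, 2528 and 2480 CPM in the spleen libraries and at 862, 893 and 963 CPM in the mLN libraries. The tissues did not overlap, and the difference was 2.75-fold (log2 fold change -1.46, SE 0.030, edgeR adjusted p = 5.67e-21). The summed Igkv level was 1260, 1293 and 1289 CPM in spleen and 449, 433 and 425 CPM in mLN, which is 2.94-fold lower. The summed Iglc level was 1.99-fold lower (378 ± 12.5 against 190.3 ± 1.76 CPM) and the summed Iglv level 2.38-fold lower (107 ± 3.52 against 44.8 ± 0.0621 CPM).

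The lambda constant genes were lower in all mLN libraries as well, but by unequal amounts. Iglc1 was at 105, 115 and 113 CPM in spleen and 44.4, 48.1 and 44.0 CPM in mLN (-1.28 on the log2 scale, SE 0.057, edgeR adjusted p = 3.27e-22). Iglc2 was at 177, 181 and 181 CPM against 96.4, 97.4 and 97.7 CPM (-0.89, SE 0.039, adjusted p = 1.54e-22). Iglc3 was at 83.5, 93.6 and 86.3 CPM against 48.8, 46.9 and 47.4 CPM (-0.88, SE 0.060, adjusted p = 3.86e-16). The near copies Iglc2 and Iglc3 thus had similar fitted changes, and that of Iglc1 was larger.

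Among the lambda V segments, Iglv1 (chr16:19085017-19085500) stood at 83.1, 80.8 and 80.8 CPM in spleen and 35.2, 32.7 and 32.0 CPM in mLN (-1.29 on the log2 scale). Iglv2 (chr16:19260401-19260859) was at 14.1, 11.2 and 11.4 CPM against 2.002, 3.94 and 4.54 CPM (-1.82, SE 0.203, edgeR adjusted p = 1.56e-09). Iglv3 (chr16:19241207-19241690) was at 13.1, 14.4 and 11 CPM against 7.54, 8.21 and 8.18 CPM (-0.68, SE 0.148, adjusted p = 1.70e-04). None of the 3 overlapped between tissues, and Iglv2 fell the most of all the constant and lambda genes. Iglv1 and Iglv2 were 96.9% identical, so their split is uncertain.

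**Figure D1:**
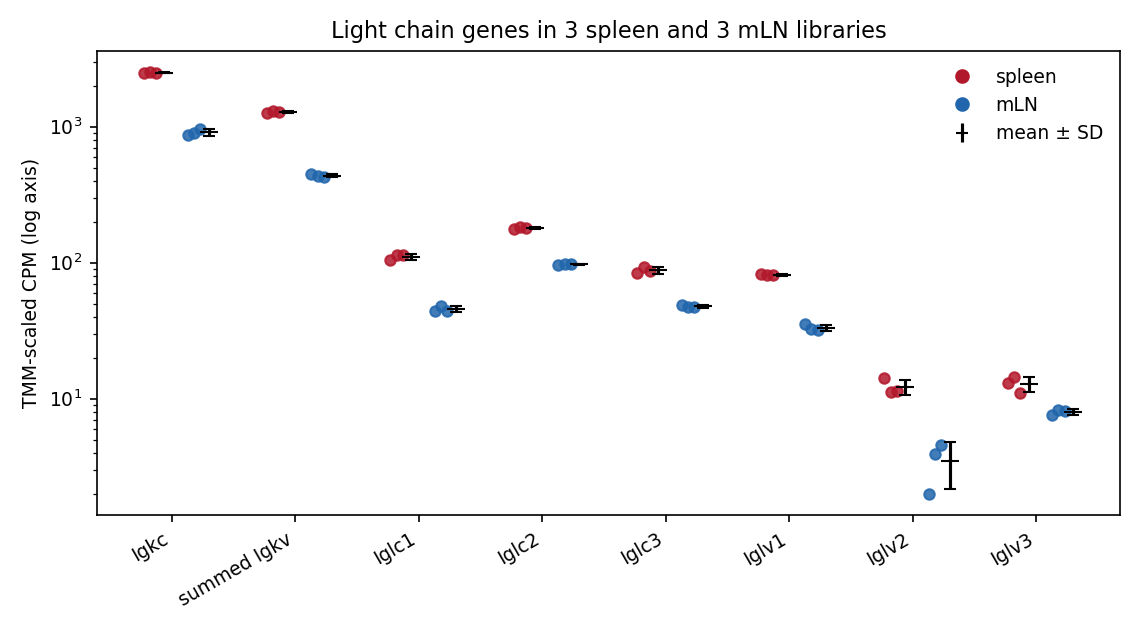
TMM-scaled CPM (log axis) of the constant genes, the summed Igkv segments and the lambda V segments in each library, with the mean and SD of 3 beside the points. Every gene lies lower in mLN than in spleen, from Igkc at 2494 against 906 CPM to Iglv3 at 12.8 against 7.98 CPM.

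The balance of kappa to lambda was compared through counts of the constant genes and, separately, of the V segments. There were 6.78, 6.49 and 6.51 Igkc counts per Iglc count in spleen and 4.55, 4.65 and 5.09 in mLN, with means of 6.60 ± 0.163 and 4.76 ± 0.292. All mLN libraries lay below all spleen libraries, with a log2 difference of -0.47 and an exact two-sided permutation p of 0.1, the smallest that 3 against 3 can give. Expressed as a share, lambda made 13.2% ± 0.280 of constant gene counts in spleen and 17.4% ± 0.859 in mLN.

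Counted from V segments, the ratio of Igkv to Iglv was 11.4, 12.2 and 12.5 in spleen and 10.02, 9.65 and 9.50 in mLN. The tissues again did not overlap (log2 difference -0.31, exact permutation p = 0.1). Lambda made 7.69% ± 0.324 of V counts in spleen and 9.33% ± 0.229 in mLN.

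The size of the shift depended on which lambda constant gene was used. Against Iglc1 alone, Igkc counts stood at 23.7, 22.0 and 21.9 per Iglc1 count in spleen and at 19.4, 18.6 and 21.9 in mLN. The third mLN library reached the level of the lowest spleen library, and the log2 difference was -0.18 (exact permutation p = 0.2). The fall in the kappa to lambda ratio was thus larger with Iglc2 and Iglc3 in the sum than with Iglc1 alone. Across the 14 single values compared this way, Benjamini-Hochberg adjustment gave 0.117 for each raw p of 0.1, so none could pass 0.05.

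**Figure D2:**
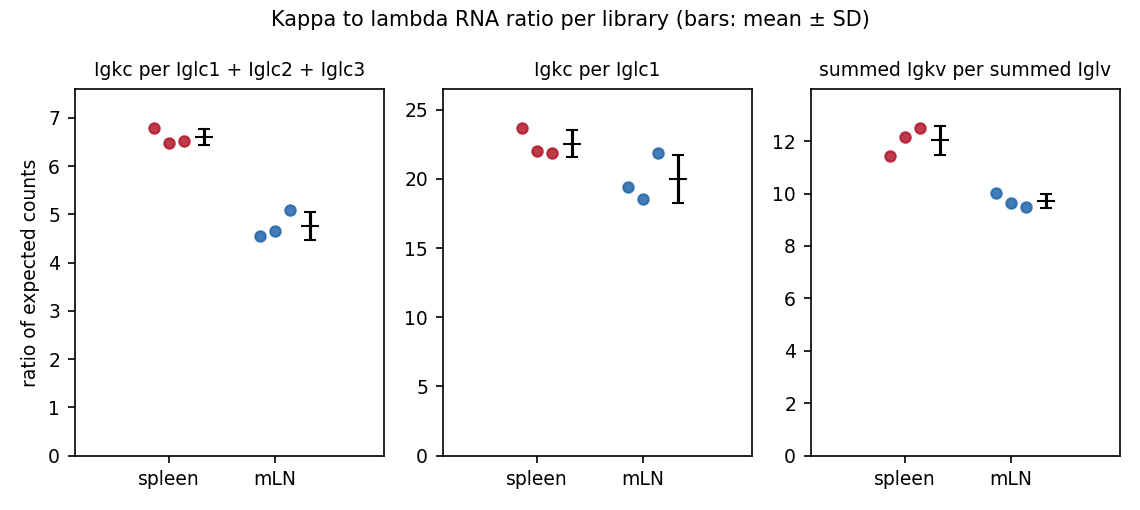
Ratio of kappa to lambda expected counts in each library, from the constant genes (left), from Igkc and Iglc1 alone (middle) and from the V segments (right), with mean and SD of 3. The mLN points lie below the spleen points on the left (4.76 against 6.60) and on the right (9.72 against 12.02), while in the middle the highest mLN library is level with the lowest spleen library.

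Within the lambda genes, the makeup differed between the tissues. Iglc1 took 28.7%, 29.4% and 29.8% of Iglc counts in spleen and 23.4%, 25.0% and 23.3% in mLN. Iglc2 took 48.5%, 46.6% and 47.6% against 50.9%, 50.6% and 51.7%. Iglc3 took 22.9%, 24.0% and 22.7% against 25.7%, 24.4% and 25.1%. None of the 3 shares overlapped between tissues (exact permutation p = 0.1 each).

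Iglv1 made most of the lambda V counts in every library, 76.6% ± 1.52 in spleen and 74.4% ± 3.79 in mLN, and its share overlapped between the tissues (exact permutation p = 0.5). The share of Iglv3 was 11.8%, 13.5% and 10.7% in spleen and 16.8%, 18.3% and 18.3% in mLN, without overlap (exact permutation p = 0.1). Iglv2 took 12.8%, 10.5% and 11.1% against 4.47%, 8.78% and 10.1%. Its mLN libraries varied widely: the difference of -3.64 percentage points became -1.98 without mLN replicate 1.

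**Figure D3:**
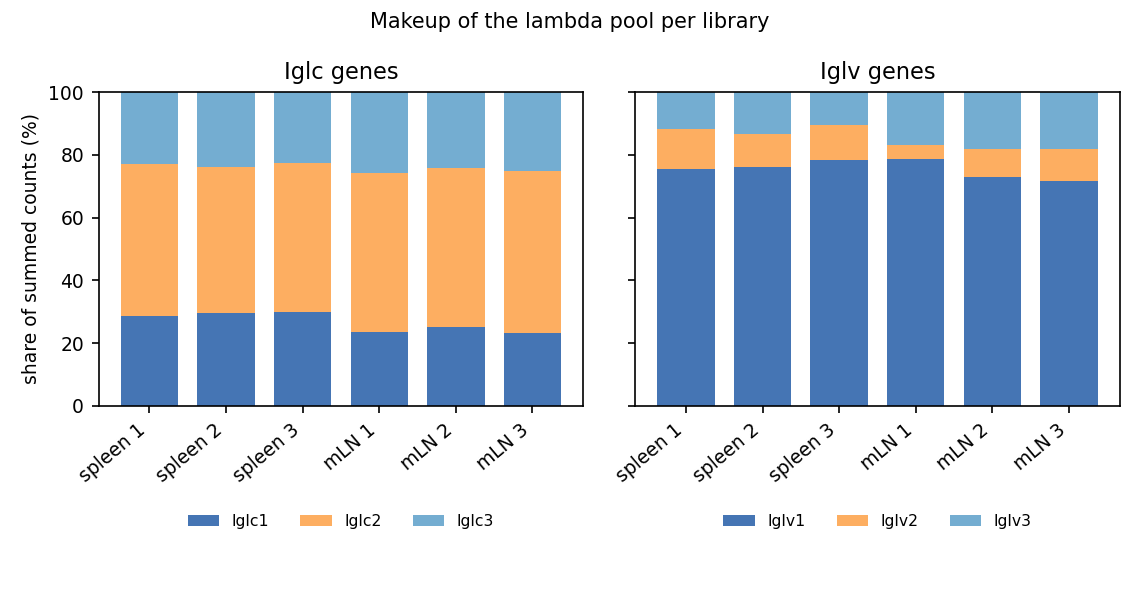
Stacked shares (%) of the 3 Iglc genes in summed Iglc counts (left) and of the 3 Iglv segments in summed Iglv counts (right), a bar for each library. Iglc1 is narrower in the mLN bars (23.9% against 29.3%) and Iglv3 is wider (17.8% against 12.01%).

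V and C counts of the same type were set against each other as a check on the totals. Igkv counts per Igkc count were 0.509, 0.511 and 0.520 in spleen and 0.521, 0.484 and 0.441 in mLN, which overlapped (exact permutation p = 0.4). For lambda, Iglv counts per Iglc count were 0.302, 0.273 and 0.271 in spleen and 0.236, 0.233 and 0.236 in mLN, without overlap. The lambda V counts were thus lower in mLN by more than the lambda C counts. Iglv1 per count of its usual partners Iglc1 and Iglc3 was 0.411 ± 0.0274 in spleen and 0.358 ± 0.0182 in mLN, also without overlap. Iglv2 and Iglv3 per Iglc2 count came to 0.139 ± 0.0148 and 0.118 ± 0.0166, which overlapped. These lambda values were not tested.

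Of the 160 Igkv segments, 84 had enough counts to be tested, and all of these were annotated as functional. The 76 left out were the 60 pseudogenes and 16 functional segments, 41 of them without a count in any library, and none had more than 22 counts in a library (Igkv4-81). The edgeR test called 75 of the 84 lower in mLN and none higher, while 9 were not called. Of all genes tested 45.5% were called, 23.8% lower and 21.8% higher. Falls of at least 2-fold were called for 65 segments, against 8.6% of all genes. In 77 segments every mLN library lay below every spleen library, beside the 27.5% of all genes. The median log2 fold change of the tested Igkv was -1.55, beside -0.002 over all genes, and single segments ranged from -3.95 to 0.50. A segment that passed only through its spleen counts had to be lower in mLN, so these counts describe the tested segments and not all 160. With Iglv, Igkc and Iglc, 82 of the 91 tested light chain genes were called lower.

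The 10 most used segments over all 6 libraries were Igkv1-110, Igkv1-117, Igkv1-135, Igkv19-93, Igkv10-96, Igkv12-44, Igkv2-137, Igkv6-17, Igkv3-2 and Igkv5-43. All 10 were called lower. Igkv1-110 stood at 87.2, 86.8 and 87.5 CPM in spleen and 24.7, 21.4 and 20.1 CPM in mLN (-1.98 on the log2 scale, SE 0.073, edgeR adjusted p = 3.30e-25). Igkv1-117, 97.2% identical to it, went from 75.1 ± 1.48 to 24.8 ± 2.49 CPM (-1.60). On the length-corrected TPM scale Igkv1-110 had the highest mean over all 6 libraries, with 718 ± 22.0 in spleen and 170 ± 16.8 in mLN, where Igkv1-117 was higher (188 ± 20.2), beside 11919 ± 150 and 4105 ± 249 for Igkc.

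The largest falls among segments of at least 5 CPM were those of Igkv3-2, Igkv2-112, Igkv14-126, Igkv3-4, Igkv5-39 and Igkv4-91. Igkv3-2 (chr6:70698449-70699067) was at 51.5, 60.0 and 53.9 CPM in the spleen libraries and at 5.87, 5.23 and 4.13 CPM in mLN. The difference was 10.7-fold (log2 fold change -3.42, SE 0.109, edgeR adjusted p = 2.71e-27). Igkv2-112 was at 7.07, 7.98 and 7.89 CPM against 0.934, 0.562 and 0.729 CPM (-3.37, SE 0.283). Igkv3-4 went from 42.3 ± 2.01 to 6.12 ± 0.938 CPM (-2.80) and Igkv5-39 from 22.5 ± 1.10 to 3.24 ± 0.536 CPM (-2.78). Igkv14-126 and Igkv4-91 fell by 2.83 and 2.72 on the log2 scale from 11.6 and 7.03 CPM in spleen. Igkv4-78 had a lower fitted value (-3.95) but only 2.57 CPM in spleen, and is named after its values were seen.

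At the other end, Igkv10-94 (chr6:68704508-68704978) stood at 12.2, 12.4 and 16.1 CPM in spleen and 16.7, 14.3 and 15.2 CPM in mLN. The tissues overlapped, and the difference was not called (log2 fold change 0.18, SE 0.129, edgeR adjusted p = 0.262). Igkv17-127 went from 16.4, 17.1 and 16.3 CPM to 14.9, 11.4 and 13.8 CPM (-0.32, SE 0.124, adjusted p = 0.0327), a call that was lost with DESeq2 (0.0607), with effective lengths (0.061) and without any spleen library or mLN replicate 2. Its adjusted p ranged from 0.0127 to 0.221 over the settings tried. Igkv6-32 fell by 0.49 on the log2 scale, from 19.9 ± 1.21 to 14.1 ± 0.523 CPM. Nearest the threshold, Igkv14-130 just passed (-1.54, SE 0.603, adjusted p = 0.0336, and up to 0.196 without mLN replicate 2) and Igkv4-58 just missed it (-0.64, SE 0.295, adjusted p = 0.075, and 0.0386 without mLN replicate 3). Igkv12-38, named after its values were seen, had the highest fitted value (0.50) at 0.516 CPM in spleen and 0.732 in mLN, and was not called.

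Near copies are a limit on single segments, and their partners are given beside them, again chosen after their values were seen. Igkv10-95 is 97.1% identical to Igkv10-94 and shares its end, and it fell by 2.31 on the log2 scale from 1.97 ± 0.390 to 0.377 ± 0.275 CPM. Igkv17-121 is 97.5% identical to Igkv17-127 and went from 18.12 ± 2.04 to 6.21 ± 0.452 CPM (-1.55), whereas Igkv17-127 fell by 0.32. Igkv3-5, with the same end as Igkv3-4, fell by 2.34 from 12.04 ± 1.27 to 2.32 ± 0.666 CPM. The copies of the first and the second pair thus had unlike fitted changes, a difference that was not tested. Neither was the division of reads between copies.

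Since the whole kappa pool was lower in mLN, each segment was also tested for its share of the summed Igkv counts. By edgeR with libraries scaled to that sum, 21 of the 84 segments had a lower share in mLN, 20 a higher share and 43 were not called. On this scale 91.7% of all genes were called, 2.74% lower and 88.9% higher, since the pool itself fell and the median gene moved by 1.55. The adjusted p-values are therefore close to unadjusted ones. At an adjusted p under 0.001, a threshold added after seeing the data, 23 segments were called, 12 lower and 11 higher.

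Igkv3-2 held 4.09%, 4.64% and 4.18% of Igkv counts in spleen and 1.31%, 1.21% and 0.972% in mLN. Its share fell by 1.87 on the log2 scale (SE 0.122, edgeR adjusted p = 3.86e-23). Igkv2-112 followed (-1.82, from 0.597% to 0.170%), then Igkv14-126 (-1.28), Igkv3-4 (-1.24, from 3.30% ± 0.111 to 1.41% ± 0.253), Igkv5-39 (-1.23) and Igkv4-91 (-1.17). Leaving out each library in turn, the value of Igkv4-91 ranged from -1.87 (without mLN replicate 2) to -0.857. Among segments of at least 5 CPM, these 6 segments were also the largest falls in level. The rule that named them took only segments whose shares did not overlap between tissues. Below 5 CPM, Igkv4-78 had a larger fitted fall in share (-2.43, SE 0.616, adjusted p = 2.37e-04), from 0.201% ± 0.0421 to 0.0411% ± 0.047.

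Among segments of at least 5 CPM, the largest rise in share was that of Igkv10-94, with 0.968%, 0.961% and 1.248% of Igkv counts in spleen and 3.72%, 3.31% and 3.58% in mLN. The difference was 1.74 on the log2 scale (SE 0.130, edgeR adjusted p = 3.50e-20). Igkv17-127 rose from 1.30% ± 0.0327 to 3.06% ± 0.386 (1.23, SE 0.128) and Igkv6-32 from 1.55% ± 0.117 to 3.25% ± 0.208 (1.06, SE 0.120). Next were Igkv6-20 (0.85), Igkv12-41 (0.75) and Igkv4-50 (0.73). None of these 6 was called higher in level: Igkv10-94 was not called, and the others were lower by less than the pool. Below 5 CPM, Igkv12-38 had a larger fitted rise in share (2.04, SE 0.603, adjusted p = 0.00141), from 0.0403% ± 0.0167 to 0.170% ± 0.0956.

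Among the most used segments the share calls went both ways. Of the top 10, Igkv1-117, Igkv1-135, Igkv19-93, Igkv10-96 and Igkv12-44 were not called in the share test. Igkv1-110 fell from 6.81% ± 0.108 to 5.06% ± 0.398 of Igkv counts (log2 difference -0.43, edgeR adjusted p = 2.00e-06) and Igkv2-137 from 3.15% to 2.68% (adjusted p = 0.0327, but 0.0711 with DESeq2 and 0.303 without mLN replicate 2). Igkv6-17 rose from 2.22% ± 0.360 to 3.35% ± 0.462 (adjusted p = 3.91e-06) and Igkv5-43 from 2.16% ± 0.119 to 2.92% ± 0.476 (adjusted p = 7.13e-04).

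**Figure D4:**
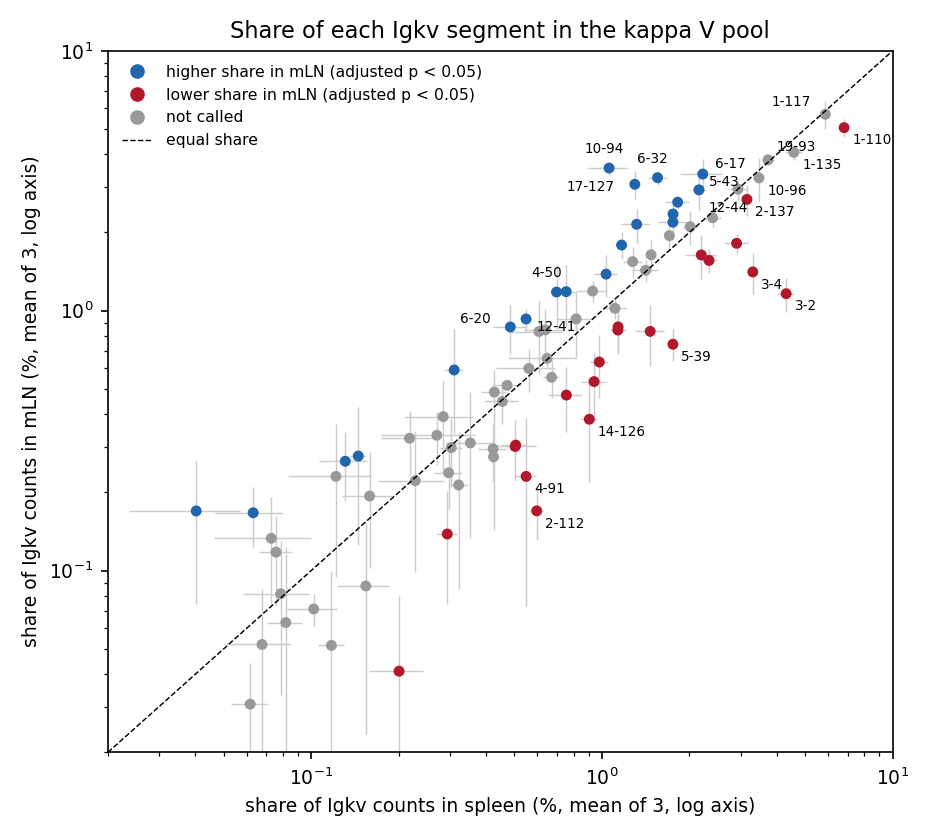
Mean share (%) of the 84 tested Igkv segments in the Igkv counts of spleen (x) and mLN (y), both log axes, with SD of 3 as grey bars and the called segments coloured. Igkv10-94 (1.06% and 3.54%) lies farthest above the line of equal share among the segments of at least 5 CPM, and Igkv3-2 (4.30% and 1.16%) far below it.

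Grouped by V family, the Igkv3 family took 11.2% ± 0.620 of Igkv counts in spleen and 5.70% ± 0.249 in mLN, with 3 of its 7 tested members called lower in share (Igkv3-2, Igkv3-4 and Igkv3-5) and none higher. Igkv1 went from 19.5% ± 0.105 to 16.2% ± 0.521. In the other direction, Igkv6 went from 9.75% ± 0.385 to 13.1% ± 0.204, Igkv10 from 4.68% ± 0.211 to 6.87% ± 0.500 and Igkv17 from 2.71% ± 0.128 to 4.50% ± 0.381. Within Igkv10, Igkv10-94 went from 1.06% to 3.54%, but Igkv10-96 from 3.47% to 3.24% and Igkv10-95 from 0.154% to 0.0873%. Within Igkv17, Igkv17-127 went from 1.298% to 3.065%, beside 1.41% and 1.43% for Igkv17-121. The largest family by members, Igkv4, held 15.1% ± 0.393 and 15.4% ± 0.814, although 7 of its 21 tested segments were called lower and 6 higher in share. These family shares are descriptions and were not tested.

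The segments with a higher share lay mostly on the strand opposite to Igkc: 16 of 20 were on the minus strand, beside 12 of the 21 with a lower share, 23 of the 43 not called and 51 of all 84 tested. Segments of the plus strand together took 50.2% ± 1.05 of Igkv counts in spleen and 44.3% ± 0.553 in mLN. This sum includes Igkv3-2, which went from 4.30% to 1.16%, and Igkv3-4, from 3.30% to 1.41%. Of the 33 tested segments on that strand, 9 were called lower in share, 4 higher and 20 were not called. Igkv3-2 lies 27.4 kb from Igkc, and the median distance from Igkc was 1421 kb for segments lower in share, 993 kb for those higher in share and 1683 kb for those not called. Neighbours along the locus often differed, such as Igkv14-126 (-2.83 in level) and Igkv17-127 (-0.32), which lie 2830 and 2865 kb from Igkc. No test was made by position.

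**Figure D5:**
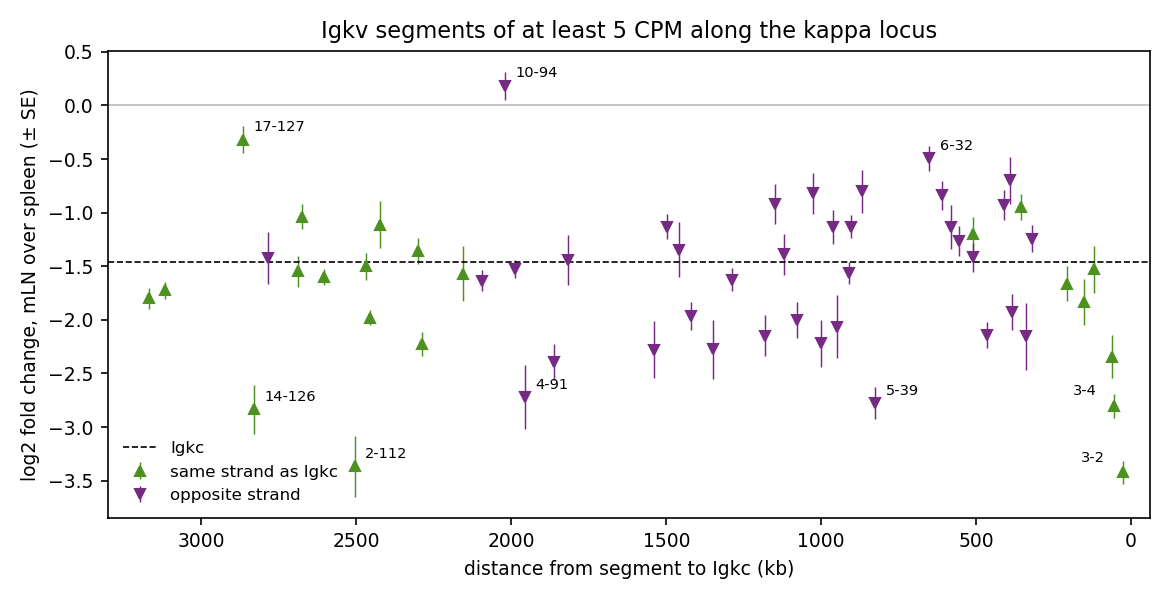
Log2 fold change in level (mLN over spleen, ± SE) of the 58 tested Igkv segments of at least 5 CPM against their distance from Igkc in kb, with the strand as the symbol and Igkc (-1.46) as the dashed line. Segments with large and small falls are interspersed along the locus, and Igkv3-2 at 27.4 kb (-3.42) is the lowest.

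The effective number of segments, the inverse Simpson index of Igkv counts that is higher for more even use, was 38.7, 37.7 and 38.1 in spleen and 41.6, 40.4 and 40.6 in mLN. The tissues did not overlap (difference 2.72, exact permutation p = 0.1). In TPM the difference was 1.34, and as the exponential of the Shannon entropy 1.16. The 10 segments with the most counts, picked anew in each library, together held 41.1% ± 0.969 of Igkv counts in spleen and 38.3% ± 0.483 in mLN. They are thus not the same 10 segments in every library.

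Over the 84 tested segments, which share their libraries, the rank correlation of usage was 0.988 to 0.991 between spleen libraries, 0.951 to 0.956 between mLN libraries and 0.883 to 0.917 across tissues. Pearson's coefficient on the log2 scale was 0.985 to 0.987 between spleen libraries, and there the ranges within mLN (0.892 to 0.925) and across tissues (0.855 to 0.892) overlapped slightly. The mLN libraries held fewer Igkv counts (5246 to 7692, against 21225 to 21911 in spleen), and the part of depth in these values was not tested. The median coefficient of variation that edgeR fitted was 0.139 for the tested Igkv and 0.0719 for all genes tested. Against genes in the same CPM range the order of the means was the other way. The spread of Igkv shares relative to counting error (mean chi-square per degree of freedom) was 2.09 in spleen and 2.55 in mLN. The other genes had 2.82 and 3.12, with single values up to 496 and 581. By medians, Igkv had 1.37 in spleen and 1.94 in mLN, beside 1.74 and 1.98, so the mLN values were close. This comparison covered 84 segments in spleen and 76 in mLN.

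Light chain RNA was lower in mLN also relative to the B-cell markers. Each value was the log2 CPM of the light chain genes minus the average over the 15 pan-B genes, also in log2 CPM. For Igkc it was 2.40, 2.41 and 2.40 in spleen and 1.65, 1.70 and 1.78 in mLN, a difference of -0.70. The summed Igkv differed by -0.79 and the summed Iglv by -0.48. For the summed Iglc the values were -0.36, -0.28 and -0.30 in spleen against -0.54, -0.52 and -0.56 in mLN, a difference of -0.22. The size of this Iglc difference depended on which B-cell genes served as the reference. The tissues did not overlap in any of the 4 (exact permutation p = 0.1 each).

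Of 25 partner genes of the light chains, 22 were tested, and 18 were called lower, 3 higher and 1 not (Rag2). The signalling partners of the B-cell receptor, Cd79a and Cd79b, fell by 0.76 and 0.79 on the log2 scale. Among heavy chain genes, the IgM gene Ighm went from 8440 ± 165 to 1987 ± 34.7 CPM (-2.09), a larger fall than that of Igkc, and the IgD gene Ighd from 1076 ± 5.84 to 769.6 ± 17.0 CPM (-0.48). Jchain, which links the chains of polymeric antibody, went from 633 ± 6.91 to 159 ± 2.24 CPM. The IgA gene Igha rose by 1.43, from 146 ± 4.87 to 393 ± 10.4 CPM, and was the largest called rise in the list. These differences between the heavy and the light chain genes were not tested against each other.

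Genes of immunoglobulin gene rearrangement and of the surrogate light chain were at low levels. Rag1, part of the recombinase, was at 5.98, 3.96 and 5.08 CPM in spleen and 0.801, 0.731 and 0.486 CPM in mLN (-2.86 on the log2 scale, edgeR adjusted p = 2.48e-09), the largest fall in the list. Rag2, the other part of the recombinase, did not fall. It was at 0.173, 1.16 and 0.478 CPM in spleen and 0.867, 0.675 and 0.810 CPM in mLN (0.38, SE 0.588, edgeR adjusted p = 0.640). Dntt, the polymerase that adds bases at joints, went from 1.92 ± 0.479 to 3.89 ± 0.306 CPM (1.01, adjusted p = 0.0051). The surrogate light chain genes Igll1 and Vpreb1 stayed below the filter, while Vpreb3 fell by 0.63 from 14.3 ± 0.465 to 9.25 ± 0.702 CPM.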

How the data were processed

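Per the submitters' processing notes, reads were processed with STAR and RSEM on the mouse build mm10. Not given in the sources used here: versions, parameters, annotation and strand setting. For each library the authors deposited an expected count (an estimate that divides reads shared by several transcripts), a TPM value, an FPKM value (not used) and an effective length per gene. Of 55487 identifiers, 346 matched no symbol in GENCODE M21. Expected counts were rounded. Genes were kept with filterByExpr by group (14427), scaled with TMM, and tested in R 4.3.3 with edgeR 4.0.16 by its quasi-likelihood F-test, robust, with tissue as sole term, adjusted by Benjamini-Hochberg over all genes and called under 0.05. For shares, the same test used library sizes proportional to the summed Igkv count. Single values per library were compared by exact two-sided permutation over all 20 assignments. Levels relative to marker genes used log2 CPM with a pseudocount of 1. DESeq2 1.42.0, other filters and scalings, TPM, effective lengths and leaving out each library were alternatives. The tests were checked on simulated counts that varied less between libraries than edgeR fitted for the tested Igkv (median coefficient of variation 0.139). This check cannot show that segments not called in the share test had equal shares.

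Named were all constant and lambda genes. Of Igkv, the rule took the 10 with the highest mean share. From called segments of at least 5 CPM in the higher tissue that did not overlap in CPM, it took the 6 largest rises and falls in level. No rise in level was called. From segments called in the share test, with the same floor and no overlap in share, it took the 6 largest rises and falls in share. It also took those just passing and just missing the threshold. The members, lists and rule were chosen with earlier results of these data known. Depth was 12584244 to 18119551 counts per library, without molecular identifiers. Segments with near copies, and any antisense gene, are uncertain. A result for 1 marker gene is not reported here.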

Additional observations from a re-analysis of the deposited data

How the results depend on the processing

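The count of light chain genes called lower (82) was 78 to 83 with DESeq2 or its size factors, other filters, scaling without receptor and other dominant genes, or effective lengths, and 76 to 84 leaving out each library, with none higher in any of these. The 41 share calls became 37 with DESeq2, 46 with no filter and 34 to 43 leaving out each library. Scaled by TMM, which tests level rather than share, 75 segments were called. In the share test itself, 23 segments were called at an adjusted p under 0.001, a threshold added after seeing the data. No pairing by replicate number was seen in the values: same-numbered libraries correlated by 0.0267, 0.0275 and -0.0081 over all genes in their deviations. Whether same-numbered libraries share an animal is not stated in the labels, and these correlations cannot decide it. With replicate as a block, 82 genes were called and 41 shares, 22 lower and 19 higher. A sign-flip test of the same-numbered pairs gave an exact p of 0.25 for the constant gene ratio (-0.47), its smallest.

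Among named genes, direction turned only for shares that were not called. Leaving out each library in turn, the log2 share difference of Igkv1-117 ranged from -0.1 to 0.058 (positive without mLN replicate 1), that of Igkv10-96 from -0.258 to 0.01 (positive without mLN replicate 3) and that of Igkv12-44 from -0.052 to 0.074 (positive without spleen replicate 3, at 0.054, or mLN replicate 2). Igkv14-130 gave 0.014 with DESeq2, 0.005 with no filter, and -0.31 to 0.464 leaving out a library. The cause was not tested. Calls for the levels of Igkv14-130, Igkv17-127, Igkv4-58 and Igkv6-20 and for the shares of Igkv1-135, Igkv10-96 and Igkv2-137 changed under some settings. With 3 libraries per tissue the single-value tests could not pass 0.05, and the lower Igkv counts of mLN limit the less used segments there.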

Other observations

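The 60 Igkv pseudogenes, none of which was tested, held 0.173% ± 0.0190 of Igkv counts in spleen but 0.277% ± 0.0263 in mLN (± SD over 3 libraries), from 35, 35 and 42 counts against 17, 21 and 16. The 10 J segments in the annotation had no count in any library, so J usage was not measured here. RSEM's mean length for Iglc2 placed 90.5% to 94.5% of its abundance on the longer, 606-base transcript rather than the 458-base transcript of the constant exon, with means of 93.6% ± 1.45 in spleen and 91.8% ± 1.26 in mLN. Among Igkv, 104 to 108 segments had a count in a spleen library and 98 to 102 in an mLN library.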
